A study of Mus musculus with 6 samples.

Results

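The loci described here are transcribed intervals between genes that lie just downstream of a coding gene and are read in the same direction. They were taken from the authors' own transcript assembly on the mouse genome build mm9. A locus entered when all of its assembled transcripts are coded as intergenic and carry no protein identifier, when its nearest coding locus lies on the same strand and ends before it, and when the gap between the 2 is at most 50 kb. Loci on the sex chromosomes were left out. The rule found 286 such loci among 2075 counted intergenic loci and 18420 loci in the count table. They lie on all 19 autosomes, 153 on the plus and 133 on the minus strand, and their coding neighbours, called partners below, number 264. The files name loci by an assembly number only, and 0 of the 18420 locus identifiers and 0 of the 55308 annotation identifiers matched a table of gene names, so each locus is given by its number and position.

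RNA came from mouse embryonic stem (ES) cells with an Nkx2.5-EmGFP BAC reporter, a bacterial artificial chromosome that drives a green fluorescent protein from a gene of the early heart field. The 3 libraries of day 0 are undifferentiated cells, and the 3 libraries of day 6 are embryoid bodies, cell clumps grown from drops of ES cells, taken 6 days after cardiac differentiation was induced. The design text calls the libraries of a stage biological replicates. All libraries carry the strain label C57BL/6J, whereas the growth protocol gives the line as 129/OlaHsd, subline E14Tg2A.4; both stages derive from that line, kept with the cytokine LIF on fibroblast feeders or on gelatin, and the labels do not say which library had feeders. The labelled cell types could not be checked against marker genes, since the files hold no gene symbols, and the part that feeder RNA had in the day 0 values was not tested. The libraries are bulk samples of mixed cells at day 6, in which fewer cells of a type and less RNA per cell cannot be told apart.

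RNA polymerase II does not stop at the end of a gene: the transcript is cut and polyadenylated at a signal, while the polymerase runs on downstream before it leaves the template. Reads beyond an annotated 3′ end can therefore come from a longer 3′ untranslated region that uses a distal poly(A) site, from transcription that reads through the usual end, or from a separate noncoding gene with its own promoter. Long intergenic noncoding RNAs of the last kind are spliced and polyadenylated like messenger RNAs, are often found near genes of developmental regulators, and several are known to act in ES cells and early mesoderm. A distal 3′ end tends to move with its gene, while a separate gene can move on its own, so distance, exon number, level and the change between the stages are described together for each locus and its partner.

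Libraries held between 106306699 and 114092201 counted reads, of which 5.38 to 7.16% fell on the 10 highest loci. All values below are normalized counts, that is reads divided by the authors' size factor for the library, and 3 reads correspond to 2.62 to 3.13 normalized counts. Of the 286 loci, 269 had at least 1 read in all 6 libraries. Day 0 libraries varied more than day 6 libraries in the 237 loci with at least 10 counts in at least 3 libraries. Their median standard deviation on the log2 scale was 0.70 over the 3 day 0 libraries and 0.33 over the 3 day 6 libraries.

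Most of the loci were low, short and spliced once. Their median level was 34.8 normalized counts (range 4.62 to 16366) and their median exonic length 3270 nt, with 157 loci of 2 exons and 129 of 3 or more in their longest transcript. The median gap to the partner was 10.7 kb, with 40 loci within 1 kb and 90 between 20 and 50 kb. Set per kb of exon, the median locus had 10.3 counts and the median partner 633. For the 270 loci whose partner was counted, the ratio of the 2 per exonic kb had a median of 2.02%, and 34 loci exceeded their partner. The other 16 partners have no row in the count table, so their loci have no ratio. A partner was shared by 2 or 3 loci in 20 cases, which involve 42 of the loci. Exons were shared with no other locus in 263 cases, and 22 loci shared more than 10% of their exonic bases.

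**Figure D1:**
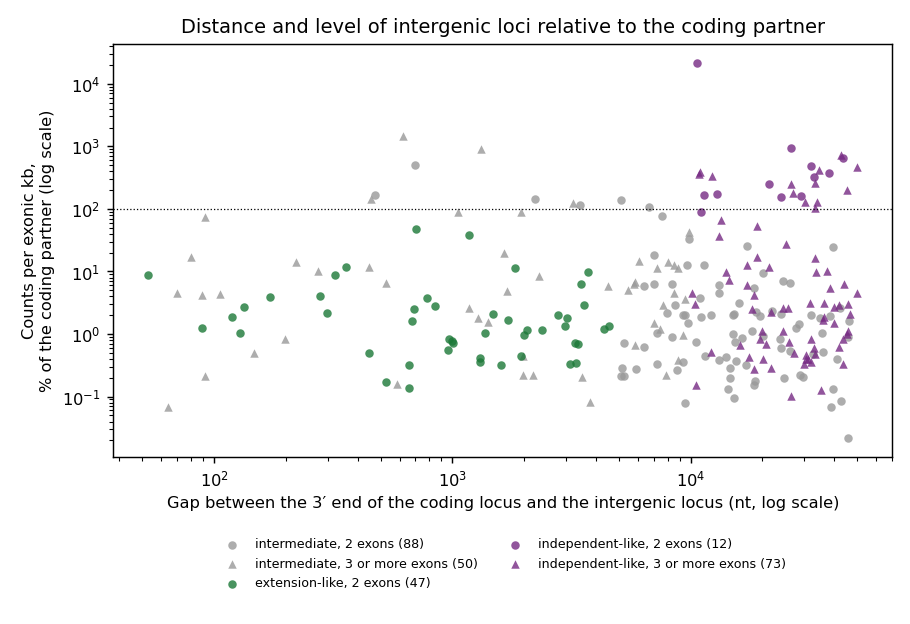
Each of the 270 intergenic loci with a counted partner is placed by its gap to the partner (x axis, nt, log scale) and by its counts per exonic kb as a percentage of the partner's over all 6 libraries (y axis, log scale); colours give the sorting by rule, circles loci of 2 exons and triangles loci of 3 or more. Most loci lie far under the dotted line at 100%, where locus and partner have the same level. The 34 loci above it occur at short and long gaps, but 18 of them lie beyond 20 kb, as do 88 of the 270 loci shown.

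Of the 286 loci, 7 had a mean of at least 1000 counts. Per exonic kb the highest was XLOC_023388 at chr3:104555283-104556960 (minus strand), 10580 nt beyond its partner XLOC_023389, with 2 exons and 217 times the partner's level per kb. XLOC_023388 held 6296, 5602 and 6101 normalized counts in the day 0 libraries and 7792, 6234 and 7334 in the day 6 libraries. Its own level did not pass the test (log2 change 0.24, SE 0.14, adjusted p = 0.205). Its partner XLOC_023389 held 297, 332 and 194 at day 0 and 151, 121 and 118 at day 6, lower in each day 6 library than in any of day 0 (log2 change -1.05, adjusted p = 0.0226). The ratio of the pair rose (log2 change of the ratio 1.29, SE 0.34, adjusted p = 0.00994), a call that was lost with quantile normalization (adjusted p = 0.0822) and without day 6 replicate 3 (0.0582).

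Next per kb came XLOC_029488 at chr6:108513351-108525899 (plus strand), of 3 exons and 12242 nt beyond XLOC_029486. XLOC_029488 held 11257, 26412 and 20919.8 normalized counts in the day 0 libraries and 12304, 13787 and 13515 in the day 6 libraries. The day 0 libraries spanned the whole day 6 range, and the difference did not pass (log2 change -0.48, SE 0.28, adjusted p = 0.203), except without day 0 replicate 1 (log2 change -0.83, adjusted p = 0.00284). Its partner XLOC_029486 held 21325, 12026 and 13981 at day 0 and 15705, 13122 and 13968 at day 6, which put the locus at 337% of the partner per kb.

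XLOC_020638 at chr2:64706243-64707019 (minus strand), 43513 nt beyond XLOC_020640, held 769, 1355 and 970.2 at day 0 and 978, 1173 and 1051 at day 6. XLOC_020958 at chr2:108897227-108899679 (minus strand), 32777 nt beyond XLOC_020959, held 1331, 3458 and 1660.2 at day 0 and 1706, 2037 and 2104 at day 6. Both stages overlapped at each of these loci, and neither passed the test (log2 changes 0.08, 95% interval -0.48 to 0.65, and -0.02, 95% interval -0.79 to 0.75). In day 0 replicate 2 XLOC_029488, XLOC_020638 and XLOC_020958 all stood at their highest. XLOC_016816 at chr18:50368406-50368801 (plus strand) is short (exonic length 259 nt) and held 52.3, 177 and 105 at day 0 and 92.3, 88.2 and 106 at day 6, 12.6% of its partner XLOC_016815 per kb. Whether such short, abundant loci hold copies of other expressed sequences could not be checked, since no sequence of mm9 was used here.

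A further 3 loci stood far above their partners per kb. XLOC_011337 at chr14:76914259-76924937 (minus strand) begins 622 nt beyond XLOC_011338 and reached 1464% of it. XLOC_011337 held 1514, 2152 and 1328 normalized counts in the day 0 libraries and 319, 245 and 365 in the day 6 libraries, a fall with no overlap between the stages (log2 change -2.41, SE 0.27, adjusted p = 0.000242). Its partner XLOC_011338 held 155, 150.2 and 166 at day 0 and 122, 84.1 and 92.9 at day 6, and the ratio fell as well (log2 change of the ratio -1.74, SE 0.38, adjusted p = 0.00418). Exons of other loci hold 78.8% of the partner's exonic bases and 14.9% of those of XLOC_011337, which bears on how their reads were assigned.

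XLOC_007565 at chr12:81119428-81182168 (minus strand), 26480 nt beyond XLOC_007566, was at 950.3% of its partner. Its day 0 libraries held 186, 23.8 and 102, a spread that contained the 143, 96.4 and 93.9 of day 6. XLOC_017412 at chr18:80375201-80381648 (minus strand) begins 1315 nt beyond XLOC_017413 and was at 894%. It fell from 48.0, 68.4 and 40.9 to 6.08, 11.3 and 15.7 (log2 change -2.21, SE 0.44, adjusted p = 0.00441), and its partner was too low for a test of the ratio. In both cases the partner's exons are mostly shared with other loci, at 97.9% and 81.7% of the exonic bases. Of XLOC_017412 itself 40.8% of the exonic bases lie in exons of other loci.

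To separate likely 3′ extensions from loci that stand alone, the loci were sorted by gap, exon number and level only. A locus was called extension-like when the gap was at most 5 kb, no transcript had more than 2 exons and its counts per exonic kb over all 6 libraries were at most 0.5 of the partner's. It was called independent-like when the gap was over 10 kb and it had at least 3 exons or a ratio over 0.5. This gave 47 extension-like and 88 independent-like loci, and 151 intermediate ones that met neither rule. A locus without a counted partner has no ratio and could not be called extension-like. Of such loci 13 stand in the intermediate and 3 in the independent-like class. Median gaps were 1.18, 8.57 and 27.1 kb for extension-like, intermediate and independent-like loci. Median ratios per exonic kb were 1.33, 1.93 and 4.23% in the same order. The names describe the sorting, not a transcript shown to be one or the other. All 47 extension-like loci have 2 exons in their longest transcript, so no unspliced locus is among them. The stage difference was not used in it directly, but the ratio over all 6 libraries also reflects large changes between the stages. XLOC_012309 and XLOC_032933, of 2 exons and with gaps of 3443 and 474 nt, were intermediate only through ratios of 113.7 and 169.9%. Both are among the largest changes of the ratio below, so the classes are not independent of that change.

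The loci were lower at day 6 more often than higher. As a share of all counts they took 0.0530, 0.0533 and 0.0559% in the day 0 libraries and 0.0409, 0.0389 and 0.0440% at day 6, with no overlap between the stages (mean 0.0541% ± 0.0016 and 0.0412% ± 0.0026, SD, n = 3 each). These shares depend strongly on XLOC_029488, whose own difference did not pass the test. It held 11257, 26412 and 20919.8 of the 52217.8, 62802.5 and 59237.6 counts of the loci in the day 0 libraries. The shares therefore do not show a fall of the loci in general. Of the 237 loci that passed the filter on low counts (at least 10 in at least 3 libraries), 94 changed at an adjusted p under 0.05, that is 39.7% beside 44% of all 17145 tested loci. Of these, 23 rose and 71 fell, that is 9.70 and 29.96% of the loci tested, whereas over all tested loci 22.2% rose and 21.8% fell. The median log2 change was -0.54 for the tested loci (-0.58 for all 286) and 0.02 over all tested loci of the table. Among all 286 loci, the stages did not overlap in 139 (48.6%; 35 higher and 104 lower at day 6), beside 56.3% of the 18420 loci in the table (28.2% higher and 28.1% lower). Without any single day 6 library the loci that rose numbered 13, and without day 0 replicate 3 those that fell numbered 47. The calls over the whole table fell with them, from 44% of the loci tested to 29.6, 28.6 and 32.3% without day 6 replicates 1, 2 and 3 and to 36.2% without day 0 replicate 3.

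Among tested loci, called falls lay mainly in the intermediate and independent-like classes. Over all 17145 tested loci 22.2% rose and 21.8% fell. Of 37 tested extension-like loci 7 rose and 3 fell, with a median log2 change of 0.22; the 10 calls became 14, 12 and 11 without day 0 replicates 1, 2 and 3, and 6, 5 and 6 without day 6 replicates 1, 2 and 3. Of 121 intermediate loci 11 rose and 40 fell, with a median of -0.76, and of 79 independent-like loci 5 rose and 28 fell, with a median of -0.71. Without the filter on low counts the extension-like class showed no such surplus of rises. Stages did not overlap in 21 of its 47 loci, 10 higher and 11 lower at day 6, with a median log2 change of 0.11. Of 151 intermediate loci 16 were higher and 54 lower without overlap, and of 88 independent-like loci 9 and 39. By gap, the loci that fell numbered 5 of 35 tested within 1 kb, 10 of 38 between 1 and 5 kb, 13 of 42 between 5 and 10 kb, 13 of 46 between 10 and 20 kb and 30 of 76 beyond 20 kb. The difference between these classes was not tested, since members of a class are not replicates.

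The largest rises among loci with at least 10 counts in every library ranged from 2.84-fold to 13.6-fold, and 9 loci qualified. XLOC_012309 at chr15:100880309-100912332 (plus strand) led them. XLOC_012309 held 400.4, 202 and 182 normalized counts in the day 0 libraries and 3759, 3437 and 2905 in the day 6 libraries; every day 6 library was far above every day 0 library (log2 change 3.77, SE 0.32, adjusted p = 7.04e-05). Its partner XLOC_012308 held 2456, 962 and 1073 at day 0 and 1498, 1353 and 1439 at day 6, a stage difference that did not pass (log2 change 0.07, adjusted p = 0.891). In counts, not per length, the locus went from below its partner to above it, and the ratio rose (log2 change of the ratio 3.70, SE 0.35, adjusted p = 1.58e-05). Exons of other loci cover 24.5% of its exonic bases and 33.9% of the partner's, and reads there cannot be told apart without knowing how strand was counted.

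XLOC_016771 at chr18:38643116-38648460 (plus strand), a locus of 5 exons 18419 nt beyond its partner, held 37.5, 26.9 and 47.9 counts at day 0 and 211, 203 and 213 at day 6 (log2 change 2.49, SE 0.32, adjusted p = 0.000462). Its partner XLOC_016770 held 13281, 12410.3 and 14182 at day 0 and 22935, 23025 and 20672 at day 6 and rose less (log2 change 0.74, adjusted p = 0.0019). The day 6 libraries of the locus differed little among themselves, and the ratio to the partner rose with no overlap (log2 change of the ratio 1.75, SE 0.37, adjusted p = 0.00315).

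XLOC_027288 at chr5:138777980-138787784 (plus strand), of 4 exons and 24358 nt beyond XLOC_027287, went from 153, 159 and 137 to 379, 459 and 443 (log2 change 1.51, SE 0.24, adjusted p = 0.00152). Its partner XLOC_027287 held 16545, 24797 and 15756 at day 0 and 13756, 12902 and 12621 at day 6, lower in each day 6 library though short of the threshold (log2 change -0.51, adjusted p = 0.0546). Locus and partner therefore differed in the direction of their means, and the ratio rose (log2 change of the ratio 2.01, SE 0.35, adjusted p = 0.000943). Exons of other loci hold 39.9% of the exonic bases of XLOC_027287.

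The other 3 lie close to a partner that rose too. XLOC_000319 at chr1:87809429-87820223 (plus strand) starts 80 nt beyond XLOC_000318 and has 5 exons. It went from 35.8, 32.1 and 26.9 to 123, 131 and 152 (log2 change 2.07, SE 0.30, adjusted p = 0.000894), while its partner XLOC_000318 held 334, 242 and 409 at day 0 and 797, 778 and 700.4 at day 6 (log2 change 1.24, adjusted p = 0.00538). The change of their ratio did not pass (log2 0.83, 95% interval -0.06 to 1.72, adjusted p = 0.128) except without day 0 replicate 2 (adjusted p = 0.0482). Exons of other loci hold 56.3% of the exonic bases of XLOC_000318.

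XLOC_035441 at chr8:98351787-98359669 (minus strand) starts 70 nt beyond XLOC_035442 and has 4 exons. It held 268, 167 and 235 at day 0 and 775, 709 and 641 at day 6 (log2 change 1.68, SE 0.26, adjusted p = 0.00127), and its partner XLOC_035442 held 7160.3, 4608 and 6956 at day 0 and 9242, 8546 and 9308 at day 6 (log2 change 0.56, adjusted p = 0.0413). Its ratio rose (log2 change of the ratio 1.12, SE 0.34, adjusted p = 0.0213), a call that was lost without any single day 6 library (adjusted p = 0.0997, 0.103 and 0.0573 without replicates 1, 2 and 3). XLOC_010805 is extension-like and is described with that class. Outside the rule, because its day 0 counts were low, lies XLOC_034492 at chr8:59810487-59848143 (plus strand), which held 10.5, 7.25 and 19.9 at day 0 and 827, 705 and 682 at day 6 (log2 change 5.87, SE 0.39, adjusted p = 2.53e-05); 66.2% of its exonic bases lie in exons of other loci, it was named after its values were seen, and its partner XLOC_034491 was not counted.

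**Figure D2:**
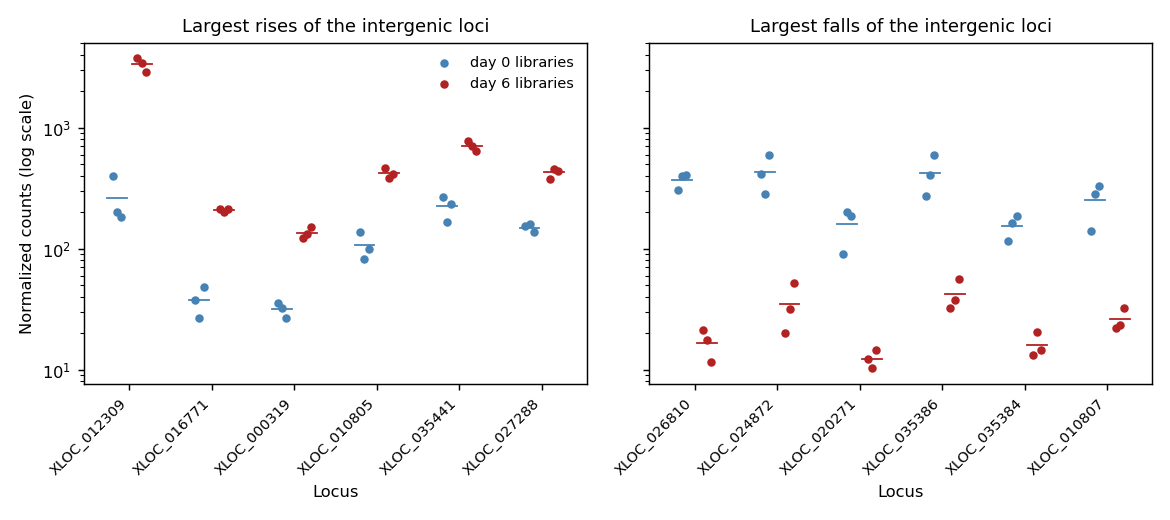
Normalized counts (y axis, log scale) of the 6 largest called rises and the 6 largest called falls among loci with at least 10 counts in every library and no overlap, with a point for each library and a short line at the mean of each stage. The 3 day 6 libraries lie above all day 0 libraries in every rise and below them in every fall; XLOC_012309 reaches 2905 to 3759 at day 6, and XLOC_026810 drops to 11.5 to 21.3.

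Under the same rule the largest falls exceeded the largest rises, and 47 loci qualified. The rule shapes this comparison, since its minimum in every library leaves out loci that start or end low. Among these are the larger rises of XLOC_021187 (log2 change 7.53) and XLOC_034492, and the fall of XLOC_032974 given below. XLOC_026810 at chr5:64782770-64788855 (plus strand), of 3 exons and 39976 nt beyond its partner, fell 21.3-fold. XLOC_026810 held 304, 396 and 409.8 normalized counts in the day 0 libraries and 21.3, 17.4 and 11.5 in the day 6 libraries (log2 change -4.41, SE 0.34, adjusted p = 4.39e-05). Its partner XLOC_026808 held 10920.2, 9319 and 9731 at day 0 and 8956, 9682 and 9564 at day 6, with no detectable difference (log2 change -0.09, adjusted p = 0.621). The ratio fell as far as the locus itself (log2 change of the ratio -4.33, SE 0.40, adjusted p = 1.56e-05). A second locus, XLOC_026809 at chr5:64774646-64782598 (plus strand), ends 171 nt before XLOC_026810 begins and belongs to the same partner. It fell from 21.8, 19.7 and 71.8 to 0, 1.03 and 2.09 (adjusted p = 0.00145; the size of the fall depends on the 1 added to each count), so both loci of this stretch were low at day 6 while the coding locus did not pass the test. It was described after its values were seen, as was XLOC_032974 at chr7:59019705-59044267 (minus strand), a locus of 5 exons that held 71.5, 99.4 and 52.8 at day 0 and 0, 0 and 1.04 at day 6 (adjusted p = 6.44e-05). Its partner XLOC_032975 held 59.3, 82.9 and 94.7 at day 0 and 92.3, 53.3 and 76.2 at day 6 and did not pass the test (adjusted p = 0.833).

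A run of 3 loci on chromosome 8 fell together. XLOC_035386 at chr8:91519314-91540081 (minus strand), XLOC_035385 at chr8:91518067-91519188 (minus strand) and XLOC_035384 at chr8:91469193-91517963 (minus strand) follow each other with gaps of 125 and 103 nt and share the partner XLOC_035387, 10974 nt upstream of the first. XLOC_035386 held 272, 405 and 599 at day 0 and 32.4, 37.9 and 56.4 at day 6 (log2 change -3.27, SE 0.38, adjusted p = 0.000307). Of its exonic bases 16.2% lie in exons of other loci. XLOC_035385 held 32.3, 45.6 and 65.8 and 6.08, 1.03 and 3.13 (log2 change -3.59, SE 0.55, adjusted p = 0.00124). XLOC_035384 held 115, 162 and 186 and 13.2, 20.5 and 14.6 (log2 change -3.18, SE 0.35, adjusted p = 0.000221). In each of the 3 loci day 0 replicate 3 was the highest library and every day 6 library was below every day 0 library. The shared partner XLOC_035387 held 27.9, 46.6 and 48.9 at day 0 and 19.3, 22.6 and 18.8 at day 6, and its difference did not pass (log2 change -0.95, adjusted p = 0.0658); 93.9% of its exonic bases lie in exons of other loci. With gaps this short the 3 loci cannot be counted as independent of each other; XLOC_035385 was added after its values were seen.

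XLOC_020271 at chr2:170352230-170359851 (plus strand), of 3 exons and 7403 nt beyond XLOC_020270, fell from 89.9, 202 and 187 to 12.2, 10.3 and 14.6 (log2 change -3.52, SE 0.40, adjusted p = 0.000297). Its partner XLOC_020270 held 5673, 8934 and 7382 at day 0 and 4896, 5555 and 5074 at day 6 (log2 change -0.48, adjusted p = 0.0659). The partner was lower in each day 6 library but short of the threshold, and the ratio fell (log2 change of the ratio -3.04, SE 0.41, adjusted p = 0.000172).

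XLOC_010807 at chr14:99725678-99751776 (plus strand), of 2 exons in any transcript and 8795 nt beyond XLOC_010806, behaved differently from the loci above in that its partner fell with it. XLOC_010807 held 140.4, 285 and 327 normalized counts in the day 0 libraries and 22.3, 23.6 and 32.4 in the day 6 libraries (log2 change -3.15, SE 0.39, adjusted p = 0.000459). Its partner XLOC_010806 held 42931, 57339 and 47119 at day 0 and 7046, 6071 and 8605 at day 6 (log2 change -2.77, adjusted p = 2.23e-05). The change of the ratio did not pass (log2 -0.38, 95% interval -1.25 to 0.50). The neighbouring pair upstream on the same strand, XLOC_010804 and XLOC_010805, rose over the same interval, so loci of this stretch of chromosome 14 moved in both directions.

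Set against their partners, most loci showed no detectable change of the ratio between the stages. For each pair the log2 ratio of locus to partner was compared between the stages in 1 fit over 1141 pairs of an intergenic and its nearest coding locus in any orientation. Of 225 downstream pairs that could be tested, the ratio changed in 78 (34.7%; 17 up and 61 down at day 6), beside 39.9% of the 1141 pairs (10.5% up and 29.4% down). In 91 of the 225 the stages did not overlap in the ratio, beside 50.7% of all pairs. Without day 0 replicate 3 the count was 49 of 196 pairs (25%, beside 30.6% of all pairs), and without day 6 replicate 2 it was 51 of 216 (23.6%, beside 25.4%). Both the locus and the partner changed in 49 of the 225 pairs, in the same direction in 42 (16 up and 26 down) and in opposite directions in 7. Over all 1141 pairs both changed in 288, in the same direction in 237 (89 up and 148 down) and in opposite directions in 51. In 37 downstream pairs only the locus passed the test, in 54 only the partner and in 85 neither. The same counts over all 1141 pairs were 212, 256 and 385.

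Extension-like loci followed their partners most closely in these counts. In part this can follow from the sorting, which used the ratio over the same libraries. The ratio changed in 6 of 37 extension-like pairs (16.2%), 42 of 112 intermediate pairs (37.5%) and 30 of 76 independent-like pairs (39.5%). The median size of the change of the ratio on the log2 scale was 0.56, 1.06 and 1.17 in that order, with similar median standard errors of 0.48, 0.50 and 0.50. The ratio stayed within 1 log2 unit in 28 of 37, 55 of 112 and 37 of 76 pairs. All 7 extension-like pairs with both loci called moved in the same direction, as did 24 of 27 intermediate and 11 of 15 independent-like pairs, beside 237 of 288 such pairs in any orientation. Across pairs, the log2 changes of locus and partner had a Pearson r of 0.82 in the extension-like class (Spearman rho 0.75, 37 pairs), 0.50 in the intermediate class (0.43, 112 pairs) and 0.31 in the independent-like class (0.37, 76 pairs). Without the 2 partners farthest from the median the extension-like r was 0.76. These are descriptions across pairs, which share libraries, and in part partners, and the difference between classes was not tested.

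**Figure D3:**
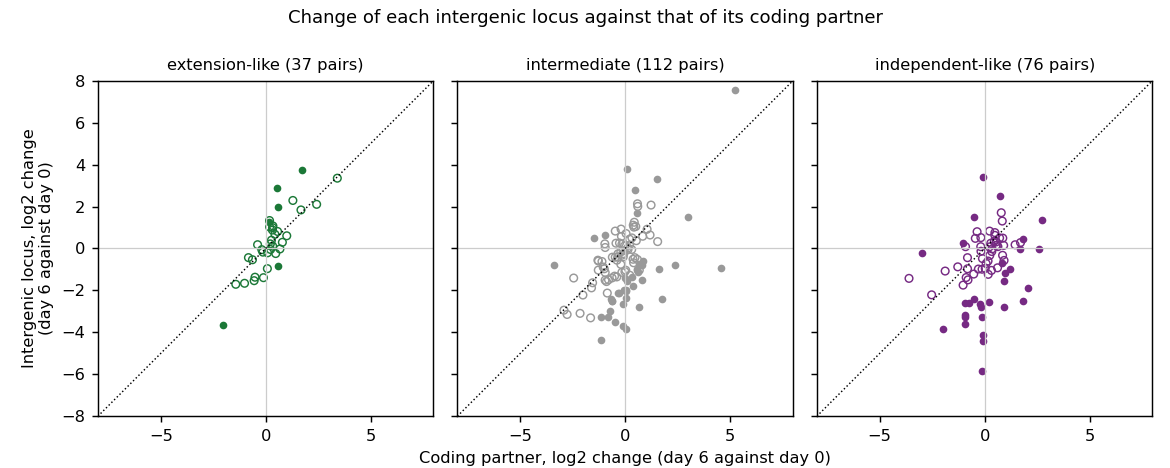
The log2 change of each intergenic locus (y axis) is plotted against that of its coding partner (x axis) for the 37 extension-like, 112 intermediate and 76 independent-like pairs tested; filled points are pairs whose ratio changed, and the dotted diagonal marks an equal change of both loci. Of the extension-like pairs (r = 0.82) 28 of 37 lie within 1 log2 unit above or below the diagonal. The same holds for 55 of 112 intermediate and 37 of 76 independent-like pairs. In the independent-like panel (r = 0.31) many filled points lie below the diagonal.

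The share of changed pairs in the extension-like class moves with level and with single libraries. Of the extension-like loci 21 of 37 had a mean under 50 counts, where 2 pairs changed; 1 of 13 changed between 50 and 200 counts, and 3 of 3 at 200 or more. In the independent-like class the corresponding counts were 10 of 30, 13 of 31 and 7 of 15. Leaving out day 0 replicates 1, 2 and 3 gave 8, 7 and 2 changed extension-like pairs, and leaving out day 6 replicates 1, 2 and 3 gave 0, 2 and 1. The same omissions gave 25 to 37 changed intermediate pairs, the lowest without day 6 replicate 2, and 21 to 32 independent-like pairs. Without day 0 replicate 3 and day 6 replicate 3 there were 26 and 27 intermediate pairs. By gap alone, the ratio changed in 7 of 35 pairs within 1 kb, 10 of 34 between 1 and 5 kb, 14 of 37 between 5 and 10 kb, 17 of 45 between 10 and 20 kb and 30 of 74 beyond 20 kb. The correlation did not fall evenly with distance: r was 0.44 within 1 kb, 0.83 between 1 and 5 kb (0.73 without the 2 partners farthest from the median), and 0.37, 0.40 and 0.34 in the 3 wider ranges.

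The 4 loci with the smallest gap all begin within 80 nt of their partner's annotated end; XLOC_000319 and XLOC_035441 are given above. XLOC_027832 at chr5:109954721-109956895 (minus strand) begins 53 nt beyond XLOC_027833. XLOC_027832 held 17.4, 62.1 and 9.97 normalized counts in the day 0 libraries and 31.4, 35.9 and 36.5 in the day 6 libraries, and its partner XLOC_027833 held 1915, 2806 and 1600.4 at day 0 and 3958, 4281 and 4106 at day 6. The partner rose (log2 change 1.01, adjusted p = 0.0067), whereas the locus varied too much at day 0 to pass (log2 change 0.60, SE 0.61, adjusted p = 0.457), except without day 0 replicate 2 (log2 change 1.32, adjusted p = 0.0232). In day 0 replicate 2 the partner, too, was at its highest for that stage, and the ratio did not change detectably (log2 -0.40, 95% interval -1.50 to 0.70).

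XLOC_034733 at chr8:96705199-96712456 (plus strand), of 3 exons, begins 64 nt beyond XLOC_034732. XLOC_034733 held 31.4, 53.9 and 91.7 normalized counts in the day 0 libraries and 27.4, 17.4 and 28.2 in the day 6 libraries; the stages did not overlap, yet the difference did not pass with limma (log2 change -1.14, SE 0.46, adjusted p = 0.0748) and passed without day 0 replicate 1 (adjusted p = 0.0193) and with DESeq2 (0.0387). Its partner XLOC_034732 held 16813, 37983 and 30756 at day 0 and 10723, 12702 and 19927 at day 6 (log2 change -0.95, adjusted p = 0.045). The ratio did not change detectably (log2 -0.19, 95% interval -1.20 to 0.81), with the locus at 0.0693% of the partner per kb.

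Among extension-like loci, XLOC_010346 shows a joint rise. It lies at chr14:29342709-29345904 (plus strand), 2063 nt beyond XLOC_010345, and held 3.49, 24.9 and 14.0 at day 0 and 101, 123 and 144 at day 6 (log2 change 3.35, SE 0.61, adjusted p = 0.00289). Its partner XLOC_010345 held 2102, 2848 and 5206 at day 0 and 36226, 35840.3 and 29199 at day 6 (log2 change 3.42, adjusted p = 8.72e-05). Both rose, and the ratio did not change detectably (log2 -0.07, 95% interval -1.28 to 1.15). This locus and the others named for this class, apart from XLOC_010805 and XLOC_024872, were chosen after their values were seen.

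XLOC_029987 at chr6:38232833-38236426 (minus strand), 967 nt beyond XLOC_029988, rose from 12.2, 6.21 and 20.9 to 47.7, 71.8 and 45.9 (4.30-fold, adjusted p = 0.00817), while its partner XLOC_029988 rose from 5185, 3282 and 4332 at day 0 to 24166, 22844 and 20918 at day 6 (log2 change 2.43, adjusted p = 4.34e-05). XLOC_020702 at chr2:76446452-76466684 (minus strand), 1309 nt beyond XLOC_020703, rose from 6.98, 7.25 and 0.997 to 26.4, 24.6 and 20.9 (log2 change 2.29, SE 0.60, adjusted p = 0.0155), and its partner rose as well (log2 change 1.30, adjusted p = 0.000599). XLOC_012376 at chr15:10366521-10375853 (minus strand), 660 nt beyond XLOC_012377, fell from 63.7, 126 and 48.9 to 31.4, 16.4 and 19.8 (log2 change -1.71, SE 0.45, adjusted p = 0.0158), and its partner XLOC_012377 fell from 21336, 41680.2 and 24896 at day 0 to 10347, 10347 and 10692 at day 6 (log2 change -1.42, adjusted p = 0.0017). The call of XLOC_012376 was lost without day 6 replicate 2 (adjusted p = 0.0714) or 3 (0.0575). None of these 3 ratios passed the test; the 95% intervals for XLOC_029987, XLOC_020702 and XLOC_012376 were -1.37 to 0.72, -0.40 to 2.38 and -1.22 to 0.65 on the log2 scale.

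In other extension-like pairs the 2 loci moved the same way by unequal factors. XLOC_024872 at chr4:146960681-146961712 (plus strand) is the locus of this class with the highest level per kb, 38.5% of its partner XLOC_024871, from which it lies 1176 nt away. XLOC_024872 held 416, 285 and 596 normalized counts in the day 0 libraries and 20.3, 31.8 and 52.2 in the day 6 libraries (log2 change -3.64, SE 0.43, adjusted p = 0.000334). Its partner XLOC_024871 held 8622, 12102 and 11712 at day 0 and 2256, 2358 and 3208 at day 6 (log2 change -2.05, adjusted p = 0.00014). The locus fell 12.4-fold and the partner 4.15-fold, and the ratio fell (log2 change of the ratio -1.58, SE 0.42, adjusted p = 0.0116); that call was lost without day 0 replicate 3 (adjusted p = 0.051) or day 6 replicate 1 (0.066).

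XLOC_010805 at chr14:99655538-99670428 (plus strand), 1825 nt beyond XLOC_010804, went from 139, 81.8 and 99.7 to 466, 383 and 413 (log2 change 2.00, SE 0.29, adjusted p = 0.000878). Its partner XLOC_010804 held 2182, 2723 and 2303 at day 0 and 3724, 3797 and 3361 at day 6 (log2 change 0.60, adjusted p = 0.0164). The ratio rose (log2 change of the ratio 1.40, SE 0.38, adjusted p = 0.0125), a call lost without day 6 replicate 1 (adjusted p = 0.0613) or 3 (0.0552). XLOC_027760 at chr5:98300408-98310735 (minus strand) rose from 10.5, 1.04 and 13.0 to 108, 89.2 and 81.4 (log2 change 3.76, SE 0.70, adjusted p = 0.00321), more than its partner XLOC_027761 (log2 change 1.71, adjusted p = 0.00237), and the ratio call (log2 change of the ratio 2.05, SE 0.64, adjusted p = 0.024) was lost without day 0 replicate 3 or any single day 6 library (adjusted p = 0.0573 to 0.0997).

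XLOC_017036 at chr18:24258956-24259993 (minus strand), 3268 nt beyond XLOC_017037, is an extension-like locus whose partner did not pass the test. It held 3.49, 3.11 and 0.997 at day 0, close to the value of 3 reads, and 25.3, 25.6 and 20.9 at day 6 (log2 change 2.90, SE 0.47, adjusted p = 0.00151). Its partner XLOC_017037 held 2195, 5956 and 5006 at day 0 and 5632, 5983 and 6008 at day 6 (log2 change 0.54, adjusted p = 0.224), and the ratio rose (log2 change of the ratio 2.36, SE 0.65, adjusted p = 0.0131; adjusted p = 0.051 without day 0 replicate 3). Since its day 0 values lie near the counting floor, the size of the rise depends on the 1 added to each count.

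In all 7 pairs that moved in opposite directions the intergenic locus fell and the coding partner rose. Among called loci falls were the more frequent (71, beside 23 rises), whereas partners of tested pairs rose in 55 cases and fell in 48. In any orientation 51 pairs moved in opposite directions, and which of the 2 loci fell in them is not given here. XLOC_025698 at chr4:131295651-131305880 (minus strand), of 4 exons and 18416 nt beyond XLOC_025699, is the first of the 7. XLOC_025698 held 405, 338 and 537 normalized counts in the day 0 libraries and 141, 129 and 77.2 in the day 6 libraries (log2 change -1.89, SE 0.33, adjusted p = 0.00232). Its partner XLOC_025699 held 3625, 1776 and 2380.2 at day 0 and 12455, 11719.5 and 7414 at day 6 (log2 change 2.05, adjusted p = 0.000903). Neither locus had overlapping stages, and the ratio fell 15.3-fold (log2 change of the ratio -3.94, SE 0.38, adjusted p = 1.70e-05).

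XLOC_032933 at chr7:53222387-53228830 (minus strand) lies only 474 nt beyond XLOC_032934 but was classed as intermediate, since its level per kb was 169.9% of the partner's. XLOC_032933 held 147, 79.7 and 104 normalized counts in the day 0 libraries and 18.3, 19.5 and 20.9 in the day 6 libraries (log2 change -2.39, SE 0.35, adjusted p = 0.000889). Its partner XLOC_032934 held 154, 89.1 and 109 at day 0 and 400.5, 417 and 356 at day 6 (log2 change 1.76, adjusted p = 0.00168). At day 0 the counts of the 2 loci ran side by side over the 3 libraries (log2 ratios -0.07, -0.16 and -0.07), and at day 6 they were far apart (-4.38, -4.35 and -4.03). The ratio fell 17.8-fold (log2 change of the ratio -4.15, SE 0.38, adjusted p = 1.56e-05), so a short gap did not go with equal changes here.

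Of the other 5, chosen by this pattern and described without further ranking, XLOC_034429 at chr8:36786661-36797429 (plus strand) fell from 38.4, 26.9 and 24.9 to 5.07, 5.13 and 3.13 while its partner XLOC_034428 rose from 1219, 737 and 1271 to 3919.8, 3665 and 3433. XLOC_028051 at chr5:125718683-125721260 (minus strand) fell from 157, 175 and 206 to 50.7, 61.5 and 71.0 while its partner XLOC_028052 rose from 10597, 6218 and 6856 to 16024, 15130.2 and 13013. XLOC_004877 at chr11:93993219-94017094 (plus strand) fell from 529.5, 341 and 300.1 to 185, 149.7 and 190.0 while its partner XLOC_004876 rose from 19131, 16052 and 12350.5 to 23744, 23568 and 23263. In these 3 pairs each stage stayed apart from the other for locus and partner alike. XLOC_013848 at chr16:95985524-95998774 (plus strand), low throughout and with 76.0% of its exonic bases in exons of other loci, fell from 10.5, 20.7 and 35.9 to 2.03, 2.05 and 2.09, and its partner XLOC_013847 rose (log2 change 0.68, adjusted p = 0.00606). The fifth, XLOC_010896, is the locus with the most exons. The gaps of the 7 pairs run from 474 to 44078 nt.

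**Figure D4:**
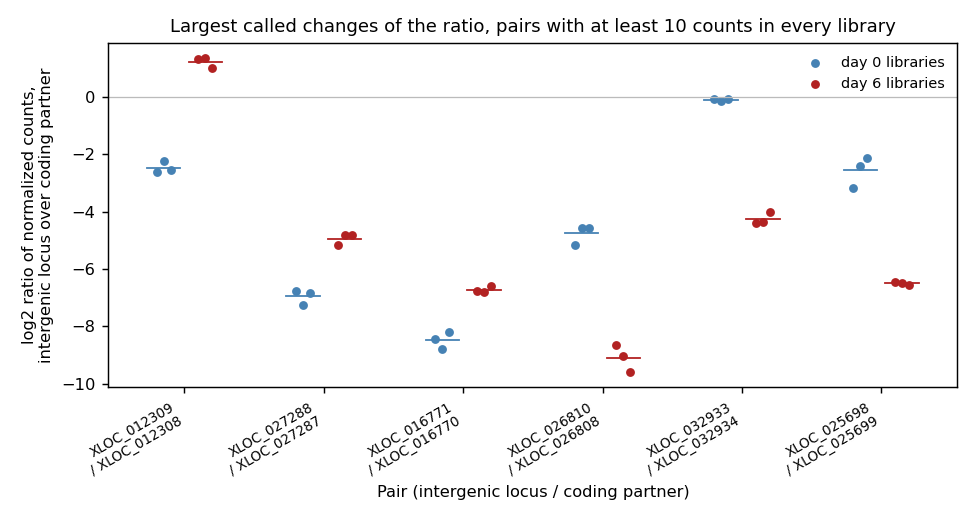
The log2 ratio of normalized counts of the intergenic locus over its coding partner (y axis) is shown per library for the 3 largest called rises and the 3 largest called falls of the ratio among pairs with at least 10 counts in every library for both loci, with a line at the mean of each stage; 0 marks equal counts. In each pair the stages stand apart: XLOC_012309 crosses from below to above its partner, and XLOC_032933 leaves equality at day 0 for lower ratios in all 3 day 6 libraries.

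XLOC_010896 at chr14:14646370-14742921 (minus strand) has a transcript of 17 exons, 38603 nt beyond XLOC_010897. XLOC_010896 held 69.8, 260.0 and 136 normalized counts in the day 0 libraries and 18.3, 19.5 and 18.8 in the day 6 libraries (log2 change -2.78, SE 0.48, adjusted p = 0.00216). The day 0 libraries differed widely, yet each was above all of day 6, where the 3 libraries nearly coincided. Its partner XLOC_010897 held 126, 138 and 121 at day 0 and 282, 229 and 220.2 at day 6 (log2 change 0.92, adjusted p = 0.0207), with 73.5% of its exonic bases in exons of other loci, and the ratio fell (log2 change of the ratio -3.70, SE 0.48, adjusted p = 0.000143).

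XLOC_021187 at chr2:147769738-147866268 (minus strand) spans nearly 100 kb with 10 exons in its longest transcript and begins 2320 nt beyond XLOC_021188. XLOC_021187 held 6.98, 13.5 and 8.97 normalized counts in the day 0 libraries and 1476, 1703 and 2902 in the day 6 libraries, from a mean of 9.81 ± 3.32 to 2027 ± 766 (SD, n = 3 each). Its rise was the largest among the 237 tested loci (log2 change 7.53, SE 0.37, adjusted p = 8.31e-06); it stands outside the largest rises above because 2 day 0 libraries had fewer than 10 counts. Its partner XLOC_021188 held 36.6, 83.9 and 56.8 at day 0 and 1617, 2175 and 2913 at day 6 (log2 change 5.25, adjusted p = 3.08e-05). Across the libraries of a stage the 2 loci kept the same order at day 0 and at day 6, and the locus rose more than its partner (log2 change of the ratio 2.28, SE 0.34, adjusted p = 0.000387).

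**Figure D5:**
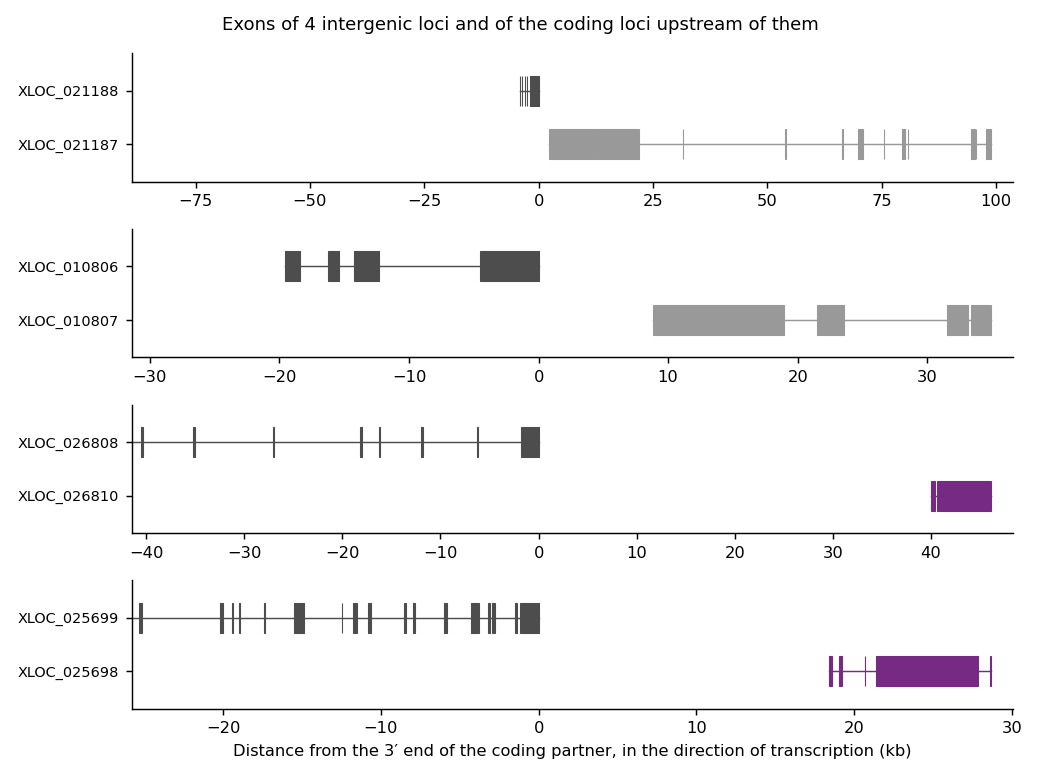
Exons (boxes, all transcripts of a locus merged) and introns (lines) of 4 intergenic loci and their coding partners, placed by distance from the partner's 3′ end in the direction of transcription (x axis, kb); the 4 pairs were chosen after their values were seen. XLOC_021187 begins close to its partner and runs on for almost 100 kb, XLOC_010807 begins 8.79 kb away, and XLOC_025698 and XLOC_026810 lie 18.4 and 40.0 kb away.

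Of the other 2 loci with many exons, XLOC_034838 fell without a detectable change of its partner, and XLOC_020468 varied along with its partner. XLOC_034838 at chr8:112625223-112636163 (plus strand), of 10 exons and 8002 nt beyond XLOC_034837, went from 169, 68.4 and 56.8 to 33.5, 13.3 and 20.9 (log2 change -1.99, SE 0.52, adjusted p = 0.0145), a call lost without day 6 replicate 2 (adjusted p = 0.0632). Its partner XLOC_034837 held 1677, 1449.9 and 1305 at day 0 and 1437, 1259 and 1592 at day 6, with no detectable change (log2 change -0.05, adjusted p = 0.864), and the ratio fell (log2 change of the ratio -1.95, SE 0.48, adjusted p = 0.00732). XLOC_020468 at chr2:26100776-26111593 (minus strand), of 9 exons and 456 nt beyond XLOC_020469, held 126, 17.6 and 122 at day 0 and 27.4, 31.8 and 40.7 at day 6, and its partner XLOC_020469 held 126, 20.7 and 148 at day 0 and 25.3, 46.1 and 40.7 at day 6. Both loci were several-fold lower in day 0 replicate 2 than in the other day 0 libraries. Neither passed the test (log2 change -0.97, SE 0.71, adjusted p = 0.304 for the locus), though the locus did without that library (log2 change -1.89, adjusted p = 0.00239). Their log2 ratio was 0, -0.22 and -0.28 at day 0 and 0.11, -0.52 and 0 at day 6. It did not change detectably between the stages (log2 change 0.03, 95% interval -0.83 to 0.88).

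Loci in other orientations to a coding locus within 50 kb give the frame for these counts. The ratio changed in 127 of 285 pairs upstream on the same strand (44.6%), 139 of 371 divergent (37.5%), 84 of 171 convergent (49.1%) and 27 of 89 with overlapping spans (30.3%), beside the 34.7% of downstream pairs. The log2 changes of locus and partner had a Pearson r of 0.39, 0.50, 0.28 and 0.64 in the same order, beside 0.48 for downstream pairs. Loci that fell outnumbered those that rose in each orientation, at 108 to 30, 113 to 67, 79 to 22 and 24 to 16, beside 71 to 23. The loci tested numbered 306, 404, 203 and 93 in that order, beside 237 downstream. Of these, 35.3, 27.97, 38.9 and 25.8% fell, beside 29.96%. The shares that rose were 9.804, 16.6, 10.8 and 17.2%, beside 9.705%. Over all 17145 tested loci 22.2% rose and 21.8% fell. No test of a difference between orientations was made. The downstream loci as a whole lie within the range of the other orientations in these values, except in the share that rose. That share was just below the lowest of the others.

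At the limit of the rule, XLOC_014025 at chr16:30123054-30206566 (minus strand) lies 49898 nt from its partner and held 758, 435 and 1069.9 at day 0 and 377, 328 and 323 at day 6. XLOC_013640 at chr16:31508809-31514012 (plus strand) lies 49821 nt away and held 300.1, 61.1 and 216 and 87.2, 87.1 and 83.5. Just outside, XLOC_019706 at chr2:106296342-106309101 (plus strand) lies 50033 nt away with 81.1, 307 and 105 and 17.2, 26.7 and 27.1, and XLOC_024490 at chr4:104955430-104957447 (plus strand) lies 50047 nt away with 3.49, 0 and 2.99 and 5.07, 13.3 and 10.4. Means over all 6 libraries were 548 and 139 inside the limit and 93.9 and 5.89 outside it, though values of single libraries overlapped. Beyond the limit lie 143 loci downstream on the same strand.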

How the data were processed

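The members and lists were chosen with earlier results of these data known. Poly(A)-selected RNA of 3 day 0 and 3 day 6 libraries was read from both ends, per the labels' protocols. In the submitters' processing notes stand TopHat2 2.0.8 and Cufflinks 2.1.1, also HTSeq 0.5.4p3 and DESeq, and the build mm9, without their roles. The treatment of strand and of shared exons in counting is not given in the sources used. In the deposited table each locus has a signal: the authors divided read counts by 1 size factor per library, and 100% of values came back as whole reads within 0.01 reads. The depth bounds the precision of low loci; reads were not counted by molecular identifier, so PCR copies cannot be told from separate molecules. Columns left unused numbered 0.

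Gaps and exons were taken from the deposited assembly. The stages were compared with limma 3.58.1 (R 4.3.3, trend and robust eBayes) on log2(normalized count + 1), which understates the change of low loci. The 17145 loci with at least 10 counts in at least 3 libraries were tested, two-sided, with Benjamini-Hochberg adjustment over all of them and a threshold of 0.05; every adjusted p comes from this test unless another is named. Intervals are 95%. Ratios of counts were fitted likewise over 1141 pairs. Alternatives were other filters, added constants, scalings and variance models, a replicate block, leaving out each library, edgeR 4.0.16 and DESeq2 1.42.0; the steps were tested on simulated data. Positions were handled in Python 3.11.15 with pandas 2.3.3 and numpy 2.4.6, figures in matplotlib 3.10.9. Named loci were the 6 highest per exonic kb, the 6 largest called rises and falls with at least 10 counts in every library and no overlap, the 4 nearest, the 4 with most exons, the 4 with the highest ratio, the 3 largest called rises and falls of the ratio with at least 10 counts in every library for both loci, and 2 on either side of the 50 kb limit; others are marked as chosen after their values were seen. No sequence is printed, since no genome of mm9 was used here.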

Additional observations from a re-analysis of the deposited data

How the results depend on the processing

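No locus changed direction between the limma call above and a call under any setting tried. The 94 changed loci (39.7% of those tested, beside 44.0% of all loci) were 102 with edgeR (23 higher, 79 lower; 43.0% beside 44.0%), 110 with DESeq2 (23 and 87; 46.4% beside 48.3%), 93 with quantile normalization (31 and 62; 39.2% beside 44.2%) and 87 with library weights by stage (24 and 63; 36.7% beside 42.1%). A minimum of 50 counts, which leaves 120 loci and 107 pairs to test, gave 59 changed loci, 13 higher, 46 lower and 45 changed pairs (49.2% of the loci and 42.1% of the pairs, beside 44.8 and 47.7% of all); limiting the gap to 10 kb left 137 loci. Leaving out 1 library at a time gave 65 to 92 changed loci, 13 to 33 higher, 47 to 65 lower and 49 to 76 changed pairs, while the share called moved from 28.6 to 50.5% over all loci and from 25.4 to 42.6% over all pairs. Same-numbered libraries of the stages deviated together with correlations of 0.18, 0.13 and 0.07, each library correlating best with its own number, which does not establish pairs; with a replicate block 106 loci changed, 26 higher and 80 lower, and 93 pairs (44.7 and 41.3%, beside 45.8% of all loci and 44.9% of all pairs).

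The values that changed sign belong to differences that did not pass the test, and the cause was not tested. Leaving out 1 library, the log2 change ran from -0.11 to 0.30 for XLOC_020638, -0.30 to 0.38 for XLOC_020958, -0.51 to 0.36 for XLOC_016816 and -0.33 to 1.12 for XLOC_007565. The log2 change of the ratio ran from -0.48 to 0.56 for XLOC_010346, -0.56 to 0.040 for XLOC_029987, -0.10 to 0.22 for XLOC_020468, -0.77 to 0.089 for XLOC_027832 and -0.48 to 0.092 for XLOC_034733. With quantile normalization XLOC_016816 was at 0.22, and the ratios of XLOC_010346, XLOC_012376, XLOC_029987, XLOC_027832 and XLOC_034733 were at 0.29, 0.12, 0.10, 0.083 and 0.19. With 0.5 added in place of 1 the ratio of XLOC_010346 was at 0.011. Depth limits loci near 10 counts, and 49 of the 286 had a mean under 10.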
